A study of Mus musculus with 10 samples.

Results

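Fgf1, Pdgfa, Pdgfb, Vegfa, Vegfb and Hbegf, which encode 6 secreted growth factors, were followed in RNA of mouse microglia that lacked the transcription factors Bhlhe40 and Bhlhe41 and in that of wild-type microglia. The 6 genes were taken by symbol from the 53697 genes of the deposited files, and they were chosen by their estimated counts in DKO against WT libraries, that is, in the contrast described here. Their differences between genotypes are therefore given as a description without a test, and nothing about growth factors in general is read from them.

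Brain macrophages of the microglial lineage were obtained by cell sorting from untreated female mice, and their bulk RNA was sequenced in 10 libraries. The 5 double knockout (DKO) libraries came from mice homozygous for knockout alleles of both genes (Bhlhe40-/-Bhlhe41-/-), and the 5 wild-type (WT) libraries from mice described as either C57BL/6J or Rosa26Stop-YFP, without a strain or an age being assigned to each library. All mice were described as kept on a C57BL/6 background and as of differing ages, and the WT mice also as littermates. The sort, made after enzymatic digestion of the brain, selected living cells positive for CD45.2 and CD11b and negative for Ly6C, Ly6G, MHCII and CD38. Libraries are named by genotype and replicate number, and because nothing states that each one is a separate mouse, p-values measure the spread between libraries.

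Growth factors of these families are secreted or shed ligands that bind receptor tyrosine kinases on the same or on neighbouring cells. FGF1 lacks a classical signal peptide and leaves the cell by an unconventional route, PDGF and VEGF chains pair into disulphide-linked dimers, and HB-EGF is made as a membrane-anchored precursor that is cut from the surface by metalloproteases. In the brain, PDGF-A is best known as a mitogen of oligodendrocyte precursors, PDGF-B as a recruiter of pericytes, and VEGF-A as the hypoxia-induced factor that drives vessel growth.

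Estimated counts summed to 22483284 to 26109349 per library. They were scaled to CPM (counts per 1000000 counts of the library) with TMM factors and compared with edgeR's quasi-likelihood test over the 13916 genes that passed a count filter, of which 862 (6.19%) had a Benjamini-Hochberg adjusted p under 0.05. Of all tested genes, 4.34% were higher in DKO and 1.85% were lower. Higher genes made up 70.1% of the calls, a share that was 54.6% with upper-quartile factors, which shifted all genes by a median of -0.101 on the log2 scale, 53.7% with library size alone and 13% with limma on log2(TPM + 1), which shifted them by -0.246. Calls numbered 449 when WT 1 and WT 5 were left out and 1618 without WT 3, so single libraries weighed heavily on the count. All 11 microglial markers were tested and their summed level was 83080 to 92050 CPM in WT and 78170 to 94350 CPM in DKO libraries. P2ry12, a purinergic receptor and the 1 marker that fell, had a log2 fold change of -0.50 ± 0.12 (SE, edgeR adjusted p = 0.0301), and the call was lost without DKO 1, 2 or 3 or without WT 1, 2, 4 or 5, each left out alone (adjusted p up to 0.0841). In bulk RNA, fewer cells of a type and less RNA per cell cannot be told apart.

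The targeted genes were read first. Bhlhe40, a repressor of the basic helix-loop-helix class, was scarce, with 4 to 28 counts in WT and 1 to 8 counts in DKO libraries, and did not pass the count filter. Fitted without the filter, Bhlhe40 had a log2 fold change of -1.71 ± 0.63 (SE, edgeR adjusted p = 0.201). Bhlhe41, its paralog, averaged 35.9 ± 6.67 CPM over WT and 50.9 ± 8.46 CPM over DKO libraries (SD, n = 5 each, edgeR adjusted p = 0.0707), so its RNA was not lower. The higher level of Bhlhe41 was past the threshold in 8 of 25 alternative settings, among them DESeq2, the fits in which length enters, where the log2 fold change reached 2.06 against 0.50, and the fit without WT 1 (edgeR adjusted p = 0.0307). Its TPM, 7.39 ± 1.95 over WT and 23.8 ± 6.88 over DKO libraries, did not overlap. The deposited transcript length of Bhlhe41, which is weighted by the isoforms detected, was 5878 to 6133 bases in WT and 1851 to 2719 bases in DKO libraries and did not overlap between genotypes.

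Of the 6 growth factor genes, 5 passed the count filter. Fgf1 was higher and Hbegf lower in DKO libraries, while Pdgfa, Pdgfb and Vegfb overlapped between genotypes and Vegfa had 8 counts or fewer in 8 of the 10 libraries. Thus 2 of the 5 tested genes, 1 in each direction, were past the adjusted threshold, against 6.19% of all genes (4.34% higher and 1.85% lower). The same 2 genes did not overlap in CPM between genotypes, which held for 7.62% of all tested genes. Since this contrast chose the genes, nothing is read from these shares.

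**Figure D1:**
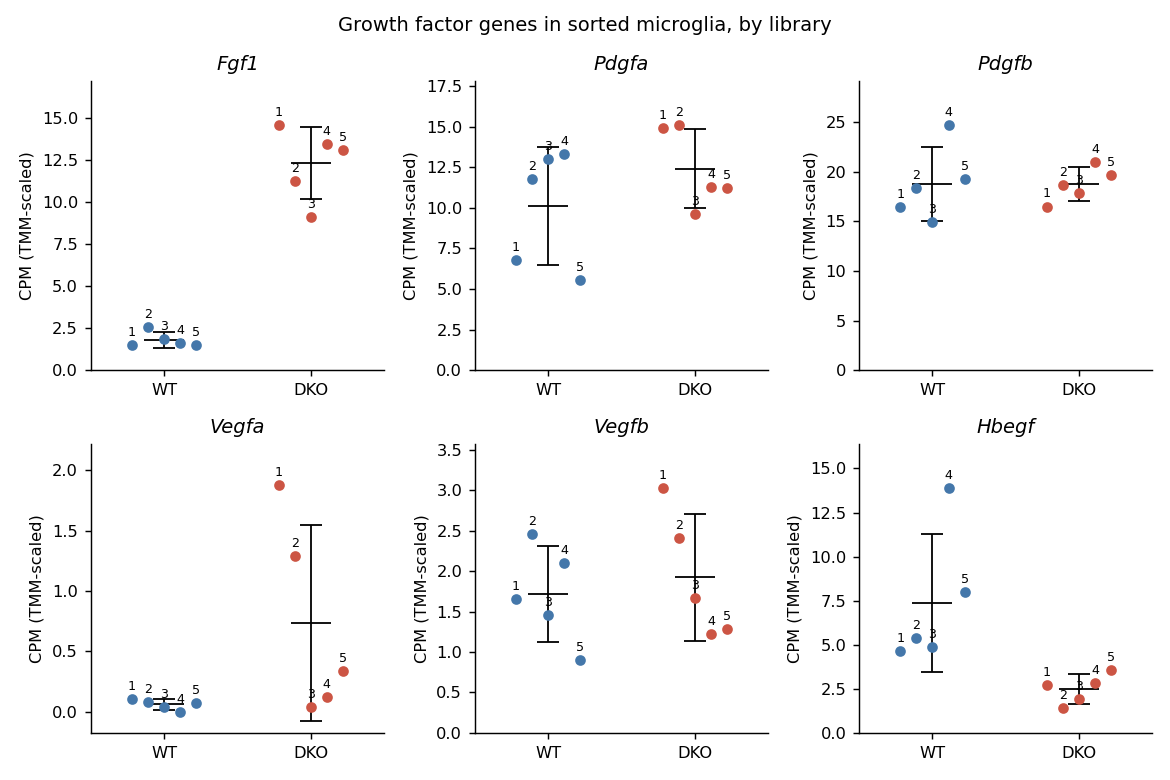
CPM scaled by TMM factors (y axis, starting at 0 or just below it for Vegfa) of each growth factor gene in WT and DKO libraries (x axis), with 1 point per library labelled by its replicate number, and the mean and SD of 5 libraries as bars. Every DKO library lies above every WT library for Fgf1 and below every WT library for Hbegf, and the other 4 genes overlap.

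Fgf1 encodes acidic fibroblast growth factor, a ligand of all FGF receptors. It was read at 1.48, 2.59, 1.86, 1.60 and 1.5 CPM in WT 1 to WT 5, or 41, 61, 47, 39 and 40 counts. In DKO 1 to DKO 5 it reached 14.6, 11.3, 9.14, 13.5 and 13.1 CPM, or 341, 254, 213, 331 and 309 counts. The lowest DKO library, DKO 3, thus held over 3 times the count of the highest WT library, WT 2, and the groups did not overlap. Means were 1.81 ± 0.463 CPM over WT and 12.3 ± 2.13 CPM over DKO libraries (SD, n = 5 each), and the fitted log2 fold change was 2.77 ± 0.20 (SE), or 6.83-fold. It stayed between 2.71 and 2.94 when any single library was left out and was 2.61 ± 0.23 (SE) without WT 1 and WT 5. Within the libraries numbered 1 to 3 the mean of Fgf1 was 1.98 CPM in WT and 11.7 CPM in DKO, and within those numbered 4 and 5 it was 1.55 and 13.3 CPM.

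The size of the Fgf1 difference depended on the transcript length behind each count. In GENCODE M21 (GRCm38) the gene lies at chr18:38838673-38929472 on the minus strand and has 11 transcripts with spliced lengths of 342 to 3983 bases. The deposited length for Fgf1 was 871, 802, 3981, 1797 and 712 bases in WT 1 to WT 5, and that of WT 3 equals the spliced length of a single annotated transcript. In DKO 1 to DKO 5 the length was 1894, 1942, 3093, 1563 and 1766 bases. The isoform-weighted length had an SD of 1384 bases over WT and 600 bases over DKO libraries.

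TPM, which divides by effective length and scales to a common total, carried this spread into the level of Fgf1. It was 2.74, 5.23, 0.466, 1.06 and 3.77 TPM in WT 1 to WT 5 and 7.66, 5.38, 2.92, 8.03 and 6.75 TPM in DKO 1 to DKO 5. On this scale the genotypes overlapped, because DKO 3 lay below WT 2 and WT 5. The log2 difference in Fgf1 was 1.75 ± 0.54 (SE) with effective length as an offset, 1.51 ± 0.55 with limma on log2(TPM + 0.1) and 1.40 ± 0.39 on log2(TPM + 1) recomputed without Gm23935, a short noncoding gene that takes a large and unequal share of TPM. In these 3 of 25 settings Fgf1 was not past the threshold, and on log2(TPM + 1) as deposited it was 1.10 ± 0.39 (SE). The direction was the same in all 25.

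**Figure D2:**
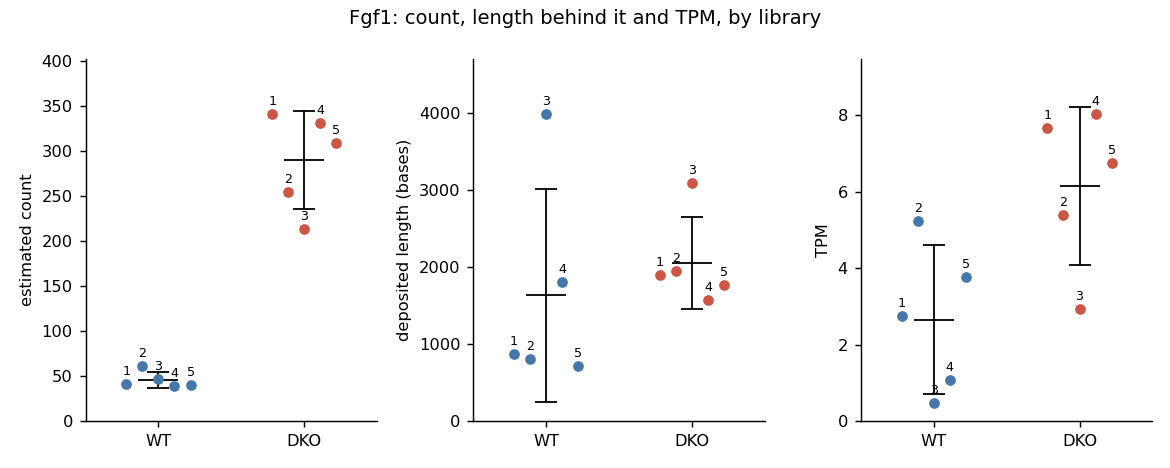
Estimated count (left), deposited isoform-weighted length in bases (middle) and TPM (right) of Fgf1 in WT and DKO libraries, with 1 point per library labelled by replicate number and the mean and SD of 5 libraries as bars. Counts do not overlap (39 to 61 against 213 to 341), whereas TPM does, with DKO 3 at 2.92 and WT 2 at 5.23.

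The library kit did not mark strand, so reads of Fgf1 and of genes transcribed across it cannot be told apart. In GENCODE M21 an Arhgap26 gene model and the long noncoding AC110730.1 overlap Fgf1 on the plus strand, and neither identifier was analysed here. Arhgap26, a GTPase activator, is held by the files under another identifier, whose span in GENCODE M21 does not reach Fgf1. That entry had 34 to 111 counts in WT and 87 to 127 counts in DKO libraries, with a log2 fold change of 0.88 ± 0.32 (SE, edgeR adjusted p = 0.13). Among the 31 tested genes within 1 Mb of Fgf1, a distance chosen after the data were seen, 1 rose and 1 fell. Of all tested genes, 4.34% rose and 1.85% fell. Nr3c1, the glucocorticoid receptor, rose from 121 to 200.4 CPM (log2 fold change 0.72 ± 0.15 SE, edgeR adjusted p = 0.0195). Gnpda1, a glucosamine-6-phosphate deaminase, fell from 179 to 135 CPM (log2 fold change -0.40 ± 0.09 SE, edgeR adjusted p = 0.0283).

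The genes whose log2 CPM followed that of Fgf1 most closely over the 10 libraries, among 7842 genes whose average log2 CPM reached 3, were Sord (Pearson r = 0.990), Plaur (0.990), Olfr1330 (0.981), Asns (0.981) and Hebp1 (0.978). Sord encodes sorbitol dehydrogenase, Plaur the urokinase receptor, Asns asparagine synthetase and Hebp1 a heme-binding protein. All 5 also differed between the genotypes, with log2 fold changes from 0.62 to 4.79, so these values carry the genotype difference itself. After each genotype was centred on its own mean, the closest were Dnase2a (r = 0.958), Tfip11 (0.948), Vav1 (0.934), Acp2 (0.934) and Myo1e (0.932), none of which was past the threshold between genotypes (edgeR adjusted p from 0.254 to 0.921). The genes were picked for these values, and no p is given.

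The other genes of FGF signalling were sparse, and of 17 receptors and co-receptors 6 were tested. Of 21 other FGF ligands, 3 were tested and 1 rose, against 4.34% of all tested genes, while 9 had no read in any library. Fgf2, basic FGF, which like FGF1 lacks a signal peptide, averaged 0.732 ± 0.278 CPM over WT and 2.38 ± 1.21 CPM over DKO libraries (SD, n = 5 per genotype; fitted log2 fold change 1.70 ± 0.43 SE, edgeR adjusted p = 0.0391). Its call was lost without DKO 1, 2 or 5 or without WT 1, 2, 4 or 5, each left out alone (adjusted p up to 0.103), and the genotypes overlapped. Fgfr1, the kinase receptor of FGFs with most reads, had 9 to 51 counts in WT and 17 to 35 counts in DKO libraries. Fgfr2, Fgfr3 and Fgfr4 stayed at 0 to 2 counts in every library, so RNA for the signalling receptors was scarce in both genotypes at this depth.

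Heparan sulphate proteoglycans, which hold FGFs at the cell surface and assist receptor binding, made up the calls among receptors and co-receptors. There 2 of 6 tested genes rose and 0 fell, against 4.34% and 1.85% of all tested genes. Sdc3, a syndecan, rose from 6.92 ± 2.38 to 28.6 ± 4.26 CPM (SD, n = 5 per genotype; fitted log2 fold change 2.05 ± 0.24 SE, edgeR adjusted p = 0.000523). Sdc4, a further syndecan, rose from 29.5 ± 5.67 to 61.3 ± 3.84 CPM (log2 fold change 1.05 ± 0.13 SE, adjusted p = 0.000616). Neither overlapped between genotypes, and both stayed past the threshold in all 25 alternative settings. Gpc2, a tested proteoglycan of the same list, was not called, at 1.30 ± 0.143 CPM over WT and 1.39 ± 0.434 CPM over DKO libraries (edgeR adjusted p = 0.854). Most listed co-receptors, among them Sdc1, Sdc2 and Gpc1, did not pass the count filter.

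Of 9 tested genes for the release and the intracellular partners of FGF1, 2 rose and 0 fell. Over all tested genes 4.34% rose and 1.85% fell. Anxa2, an annexin that takes part in the release complex, rose from 1.24 ± 0.322 to 3.11 ± 0.936 CPM (SD, n = 5 per genotype; fitted log2 fold change 1.32 ± 0.26 SE, edgeR adjusted p = 0.0145) and kept its call without each library in turn. Among 8 feedback and effector genes of receptor tyrosine kinases, 1 rose. This was Etv5, an ETS factor induced by FGF signalling, at 369 ± 104 CPM over WT and 619 ± 46.5 CPM over DKO libraries (log2 fold change 0.75 ± 0.18 SE, adjusted p = 0.0310), with the call lost without DKO 1, 2, 3 or 5 or without WT 1 or 5, each left out alone (adjusted p up to 0.0760).

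Pdgfa and Pdgfb, the chains of PDGF-AA, PDGF-AB and PDGF-BB, had the highest TPM of the 6 genes and differed little between genotypes. Pdgfa, at chr5:138976014-138997370, was read at 6.81, 11.8, 13, 13.3 and 5.57 CPM in WT 1 to WT 5 and at 14.9, 15.1, 9.61, 11.3 and 11.2 CPM in DKO 1 to DKO 5. WT 1 and WT 5 were the lowest libraries, and the other WT libraries lay within the DKO range. The mean of Pdgfa was 10.1 ± 3.62 CPM over WT and 12.4 ± 2.47 CPM over DKO libraries (SD, n = 5 each), the log2 fold change was 0.30 ± 0.25 (SE), and it ranged from -0.05 to 0.42 over 25 alternative settings without passing the threshold in any. Without WT 1 and WT 5 the WT mean of Pdgfa was 12.7 CPM.

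Pdgfb, at chr15:79995874-80014977, had the smallest standard error of the 5 tested genes. It stood at 16.4, 18.4, 14.9, 24.7 and 19.3 CPM in WT 1 to WT 5 and at 16.5, 18.7, 17.9, 21 and 19.7 CPM in DKO 1 to DKO 5. The DKO libraries all fell within the WT range. The log2 fold change of Pdgfb was 0.00 ± 0.14 (SE), and it ran from -0.32 to 0.12 over 25 settings, the lowest on TPM. An antisense gene overlaps each of the 2, 6330403L08Rik at Pdgfa and Gm41361 at Pdgfb, and both averaged 1 CPM or less in each genotype (0.898 and 1.00 CPM for 6330403L08Rik and 0.605 and 0.293 CPM for Gm41361 in WT and DKO libraries).

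Vegfa, the main angiogenic ligand, was almost unread in WT microglia. It had 3, 2, 1, 0 and 2 counts in WT 1 to WT 5 and 44, 29, 1, 3 and 8 counts in DKO 1 to DKO 5. The higher DKO mean thus came mostly from DKO 1 and DKO 2. In CPM, DKO 3 (0.0429) lay within the WT range of 0 to 0.108, DKO 4 (0.122) just above it, and the groups overlapped through DKO 3 alone. Vegfa did not pass the count filter. Since every WT library was at or under 3 counts, no fold change of Vegfa is given. The 20 hypoxia targets of the list, which shares its pathway with Vegfa, summed to 1928 to 2141 CPM in WT and 2209 to 2337 CPM in DKO libraries. These sums did not overlap between genotypes and were higher in DKO. They were 2337, 2209, 2297, 2248 and 2252 CPM in DKO 1 to DKO 5. The largest rise in CPM was that of Pdk1, from 63.3 ± 46.6 to 189.5 ± 14.8 CPM (SD, n = 5 each), which was not called (edgeR adjusted p = 0.0767). Slc2a1, Pfkfb4, Ddit4, P4ha1 and Hk2 were lower in DKO, none of them called. The median log2 fold change of the 18 tested targets was 0.14. The part of the hypoxia targets in the level of Vegfa was not tested.

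Vegfb, a VEGFR1 ligand linked to fatty acid handling in other tissues, was low in both genotypes. It was read at 1.66, 2.46, 1.46, 2.10 and 0.903 CPM in WT 1 to WT 5 and at 3.03, 2.41, 1.67, 1.22 and 1.28 CPM in DKO 1 to DKO 5, or 24 to 58 and 30 to 71 counts. The ranges overlapped in part, with WT 5 lowest and DKO 1 highest. The log2 fold change of Vegfb was 0.16 ± 0.33 (SE) and ran from -0.28 to 0.33 over 25 settings, past the threshold in none. Its standard error was the second largest of the 5 tested genes, after that of Hbegf.

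Promoter windows were searched for the E-box CACGTG, of the class bound by Bhlhe40 and Bhlhe41, for the variant CACATG and for ACGTG, the core of the hypoxia response element, on both strands. RefSeq windows (GRCm38.p6, 250 bases before to 50 after a start) were held for Pdgfa, Vegfa and Vegfb, and not for Fgf1, Pdgfb and Hbegf. None of their 5 windows held CACGTG, which 7.15% of all 32851 windows did. Vegfb held CACATG with its first base 69 bases upstream of the start, as did 14.15% of all windows in either orientation. Of the 2 Vegfa windows, that of the first start held none of the motifs, and that of a start inside the gene held ACGTG on the opposite strand 211 bases upstream, as did 19.62% of all windows, a share that includes every CACGTG. Both windows with a match are shown because they carry the only motifs found, 5′ to 3′ on the minus strand with the match in capitals, and a match is a description of the letters, not of binding. The Vegfb window is chr19:6987602-6987901 and the Vegfa window chr17:46025114-46025413.
Vegfb: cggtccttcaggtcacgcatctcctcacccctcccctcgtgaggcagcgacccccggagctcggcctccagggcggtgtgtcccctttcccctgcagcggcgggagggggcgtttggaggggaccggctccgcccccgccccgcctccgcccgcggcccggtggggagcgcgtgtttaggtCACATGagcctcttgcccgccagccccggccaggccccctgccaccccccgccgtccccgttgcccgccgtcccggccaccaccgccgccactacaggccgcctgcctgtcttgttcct
Vegfa internal start: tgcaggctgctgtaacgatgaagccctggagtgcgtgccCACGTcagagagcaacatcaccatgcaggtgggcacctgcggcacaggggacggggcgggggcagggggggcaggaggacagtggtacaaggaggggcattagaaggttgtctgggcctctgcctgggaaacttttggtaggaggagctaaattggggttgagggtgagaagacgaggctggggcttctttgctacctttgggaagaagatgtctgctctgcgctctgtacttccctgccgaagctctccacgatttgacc

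The partners of PDGF and VEGF did not pass the test in either direction. Of the other ligands, 2 were tested and 0 were called, with Vegfd at 0.518 ± 0.211 CPM over WT and 0.718 ± 0.0943 CPM over DKO libraries and Pdgfc at 0.544 ± 0.166 and 0.260 ± 0.22 CPM (SD, n = 5 each). Of 6 tested receptors 0 were called. Nrp1, a co-receptor for VEGF and semaphorins, was at 140.4 ± 67.6 CPM over WT and 85.3 ± 21.6 CPM over DKO libraries (log2 fold change -0.72 ± 0.33 SE, edgeR adjusted p = 0.212), and Nrp2 at 26.6 ± 7.64 and 23.6 ± 3.52 CPM (adjusted p = 0.622). Nrp1 was called only on TPM as deposited (limma adjusted p = 0.0375 and 0.0391), where Pdgfc was called too. Reads of the kinase receptors were fewer, with Pdgfra, the receptor of PDGF-AA, at 0 to 6 counts in any library and Kdr, VEGF receptor 2, at 114 to 301 counts.

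Among hypoxia genes, 1 of 7 tested regulators and 3 of 18 tested targets rose and 0 fell, against 4.34% and 1.85% of all tested genes. Egln3, a prolyl hydroxylase that marks HIF for degradation and is itself induced by HIF, rose from 0.718 ± 0.557 to 8.24 ± 4.67 CPM (SD, n = 5 per genotype; fitted log2 fold change 3.52 ± 0.62 SE, edgeR adjusted p = 0.00747). Car9, a carbonic anhydrase induced by low oxygen, rose from 1.08 ± 0.350 to 5.42 ± 0.785 CPM (log2 fold change 2.33 ± 0.24 SE, adjusted p = 0.000177). Both kept their calls in all 25 settings. Bnip3, a mitophagy receptor (log2 fold change 0.46 ± 0.10 SE, edgeR adjusted p = 0.0237), lost its call without WT 2, DKO 1 or DKO 5 (adjusted p up to 0.0609). Pfkfb3, a regulator of glycolysis (0.61 ± 0.16 SE, edgeR adjusted p = 0.0497), kept its call in only 2 of the 10 fits that left out a library, those without WT 3 or DKO 4. The other 15 tested targets were not called.

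Hbegf, the heparin-binding member of the EGF family, was the 1 gene of the 6 that was lower in DKO microglia. It was read at 4.65, 5.39, 4.86, 13.9 and 8.01 CPM in WT 1 to WT 5, or 129, 127, 123, 337 and 213 counts. In DKO 1 to DKO 5 it was at 2.69, 1.43, 1.93, 2.85 and 3.57 CPM, or 63, 32, 45, 70 and 84 counts. No DKO library reached the lowest WT library, and WT 4 and WT 5 stood above the other WT libraries. The mean was 7.36 ± 3.88 CPM over WT and 2.5 ± 0.834 CPM over DKO libraries (SD, n = 5 each), and the log2 fold change of Hbegf was -1.56 ± 0.35 (SE), or 2.94-fold lower.

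The fall in Hbegf rested in part on single libraries. The log2 fold change was -1.20 ± 0.28 (SE) without WT 4, and in the fits without WT 5 (-1.52), DKO 1 (-1.58), DKO 2 (-1.41) or DKO 3 (-1.47) it was no longer past the threshold. Without WT 1 and WT 5 it was -1.69 ± 0.38 (SE). Within the libraries numbered 1 to 3 Hbegf averaged 4.97 CPM in WT and 2.02 CPM in DKO, and within those numbered 4 and 5 10.9 and 3.21 CPM. The deposited length of Hbegf was 2373 bases in every library, and its TPM did not overlap either, at 2.38 to 7.39 in WT and 0.599 to 1.41 in DKO libraries. Over 25 settings the log2 fold change ran from -1.76 to -1.09.

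**Figure D3:**
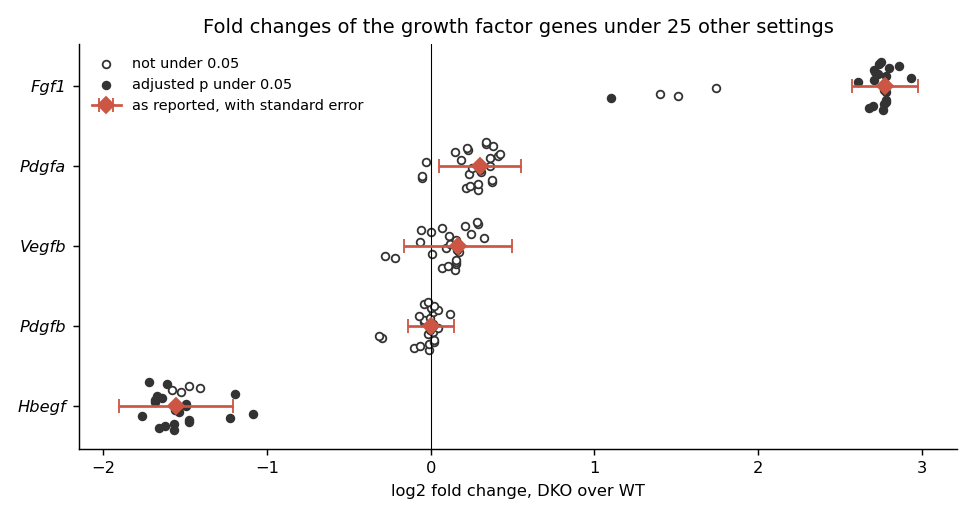
Log2 fold change of DKO over WT (x axis) of the 5 tested growth factor genes (y axis) as reported, with its standard error (red diamond), and under 25 alternative settings (circles, filled where the adjusted p was under 0.05). Fgf1 falls to 1.10 to 1.75 where length enters, Hbegf stays below 0 throughout, and Pdgfa, Pdgfb and Vegfb lie around 0.

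Hbegf, at chr18:36504927-36515805, is also known as an early response gene, so the immediate early genes were read beside it. Their 21 genes summed to 1671, 2062, 1764, 1679 and 1466 CPM in WT 1 to WT 5 and to 1752 to 2293 CPM in DKO libraries, and their part in the level of Hbegf was not tested. WT 2 had the highest WT sum and WT 5 the lowest. Of 19 tested immediate early genes, 0 rose and 1 fell, against 4.34% and 1.85% of all tested genes. Their median log2 fold change was -0.04 against -0.01 for all genes. Btg2, an antiproliferative early gene, fell from 539.9 ± 103 to 371 ± 25.7 CPM (SD, n = 5 per genotype; fitted log2 fold change -0.54 ± 0.12 SE, edgeR adjusted p = 0.0272), and lost its call without DKO 1 or 2 or without WT 1, 2 or 5, each left out alone (adjusted p up to 0.0777). Of the 26 tested genes within 1 Mb of Hbegf, 0 rose and 1 fell, Tmem173, which encodes STING (log2 fold change -0.50 ± 0.10 SE, edgeR adjusted p = 0.0124).

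No other tested ligand of the EGF family was called. There were 3 such genes, with Tgfa, the one with most reads, at 45.5 ± 8.83 CPM over WT and 55.8 ± 8.99 CPM over DKO libraries (SD, n = 5 per genotype; fitted log2 fold change 0.30 ± 0.15 SE, edgeR adjusted p = 0.278) and Btc at 1.32 ± 0.489 and 1.81 ± 0.463 CPM (adjusted p = 0.379). Egfr had 3 to 11 counts in any library, and Erbb4 had none. Of the receptors and their inhibitors 2 were tested and 0 called, Errfi1, a feedback inhibitor of EGFR (edgeR adjusted p = 0.431), and Lrig3 (adjusted p = 0.510).

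Genes that process growth factor precursors rose in 3 of 10 cases and fell in 0, against 4.34% and 1.85% of all tested genes. Their median log2 fold change was 0.47. As the lists were written with earlier results of these data known, nothing particular to this list is read from the count. Cd9, a tetraspanin that binds the membrane form of HB-EGF, rose from 1890 ± 75.9 to 2955 ± 106 CPM (SD, n = 5 per genotype; fitted log2 fold change 0.65 ± 0.07 SE, edgeR adjusted p = 0.000249), and was not called on TPM as deposited (limma adjusted p up to 0.101). Adam9, a metalloprotease able to shed HB-EGF, rose from 53.4 ± 3.07 to 89.6 ± 6.71 CPM (log2 fold change 0.75 ± 0.08 SE, adjusted p = 0.000358) and stayed past the threshold in all 25 settings. Rhbdf1, an inactive rhomboid that brings ADAM17 to the surface, had a log2 fold change of 1.71 ± 0.44 (SE, edgeR adjusted p = 0.0427), overlapped between genotypes and lost its call without DKO 1, 2 or 5 or without WT 1, 2, 4 or 5, each left out alone (adjusted p up to 0.109). Other growth factors of glia and macrophages gave 0 calls among 10 tested. Grn, progranulin, was at 4018 ± 581 CPM over WT and 4357 ± 618 CPM over DKO libraries (edgeR adjusted p = 0.618), and Psap, prosaposin, at 3528 ± 1161 and 5909 ± 937 CPM (adjusted p = 0.0661, and 0.0185 without WT 3).

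Over all 13 pathway lists, with the 6 growth factor genes left out, 14 of 103 distinct tested genes (13.59%) were called, 13 higher and 1 lower, against 6.19% of all tested genes, and their median log2 fold change was 0.16 against -0.01. Median log2 fold changes by list were 0.56 for the other FGF ligands, 0.21 for FGF receptors and co-receptors, 0.13 for the partners of FGF1, 0.20 for feedback targets, -0.29 for PDGF and VEGF ligands, -0.04 for their receptors, 0.30 for EGF family ligands, 0.14 for their receptors and inhibitors, 0.13 for hypoxia regulators, 0.14 for hypoxia targets and 0.21 for other growth factors. These lists were written with earlier results of these data known, and nothing particular to them is read from the counts. With upper-quartile factors the calls were 11 higher and 3 lower, and with limma on log2(TPM + 1) 13 higher and 18 lower.

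**Figure D4:**
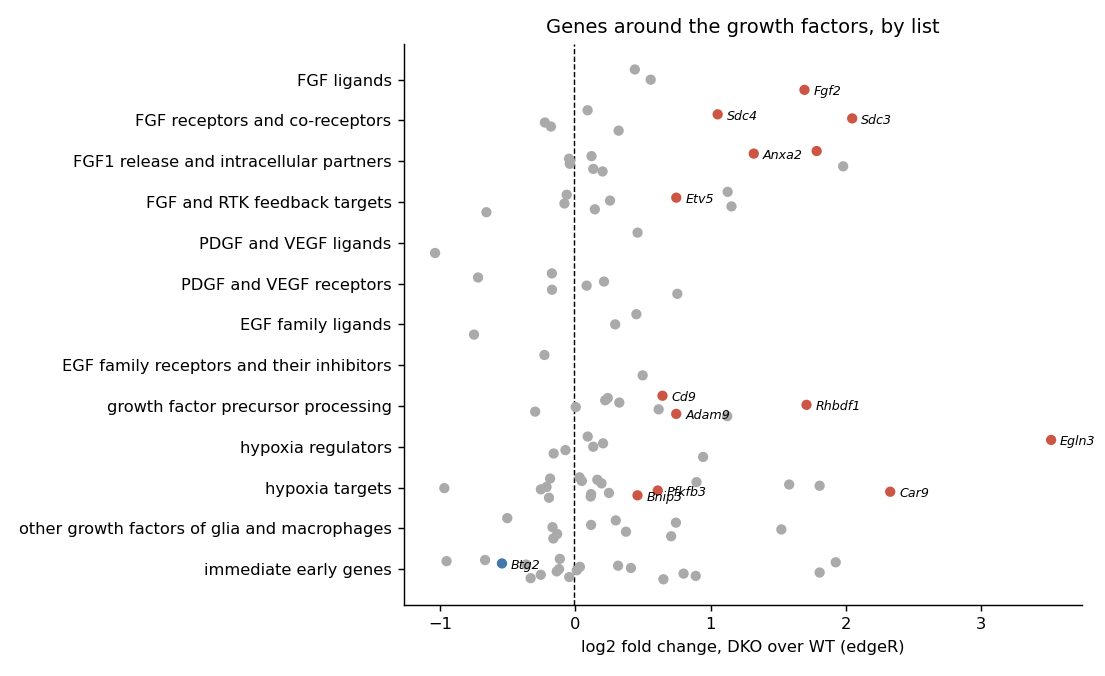
Log2 fold change of DKO over WT (x axis, edgeR) of each tested gene of the 13 pathway lists (y axis), with the 6 growth factor genes left out. Red points rose and blue points fell at an adjusted p under 0.05, grey points were not called, and the dashed line is the median of all genes tested (-0.01). Labels name Btg2, which fell, and all but 1 of the 13 genes that rose.

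Levels of the 6 genes were compared with each other per length, on log2(TPM + 0.1) within each library, with two-sided exact sign-flip permutation tests over 10 libraries adjusted over 5 neighbouring pairs. Neighbours were set by the mean over the WT libraries, which are also among those tested, so the direction of each difference was partly fixed in advance. Fgf1 and Hbegf were also chosen by their difference between genotypes, which enters the gaps over both. In WT libraries the order was Pdgfa (17.0 ± 5.30 TPM), Pdgfb (12.6 ± 2.53), Hbegf (4.03 ± 2.04), Vegfb (3.69 ± 1.47), Fgf1 (2.65 ± 1.95) and Vegfa (0.0559 ± 0.0780; SD, n = 5). Pdgfa lay above Pdgfb by 0.52 ± 0.45 log2 units (SD) in 9 of 10 libraries (exact permutation test, adjusted p = 0.0130), but by 0.26 in counts per kilobase of deposited length (exact permutation test, adjusted p = 0.146). Pdgfb lay above Hbegf by 2.44 ± 0.87 log2 units and Fgf1 above Vegfa by 4.02 ± 1.26, each in 10 of 10 libraries. As the genotype difference that chose Hbegf and Fgf1 enters these gaps, no test is read for them. With 1 in place of 0.1 added to TPM, the gaps were 1.96 and 1.985. The size of the gap to Vegfa, which was near 0 TPM, thus depended on the value added. For the other pairs the genotypes differed in sign, so no test over both is read. Hbegf minus Vegfb was 0.10 log2 units in WT, with libraries from -0.79 to 1.26, and -1.38 in DKO, from -2.53 to -0.37. Vegfb minus Fgf1 was 0.77 in WT, from -1.02 to 2.27, and -1.02 in DKO, from -2.21 to -0.01. Within 1 genotype the same test cannot pass 0.05, as 5 libraries allow no p under 0.0625.

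In DKO libraries the TPM order was Pdgfa (15.8 ± 2.40 TPM), Pdgfb (9.93 ± 0.663), Fgf1 (6.15 ± 2.07), Vegfb (3.06 ± 1.39), Hbegf (1.06 ± 0.308) and Vegfa (0.390 ± 0.485; SD, n = 5). On this scale Fgf1 moved above Vegfb and Hbegf moved below it. In CPM without TMM factors, per kilobase of deposited length, Fgf1 lay above Vegfb in both genotypes (1.72 against 1.49 in WT and 6.29 against 1.55 in DKO), while Hbegf again went from above Vegfb (3.14) to below it (1.02). In TPM, Vegfb exceeded Fgf1 in 4 of 5 WT and 0 of 5 DKO libraries, and Hbegf exceeded Vegfb in 2 of 5 WT and 0 of 5 DKO libraries. These shifts follow from the values that chose the genes. Among all tested genes, the mean TPM of Fgf1 stood at percentile 34.0 in WT and 50.6 in DKO libraries, and that of Hbegf at 40.8 and 23.6.

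**Figure D5:**
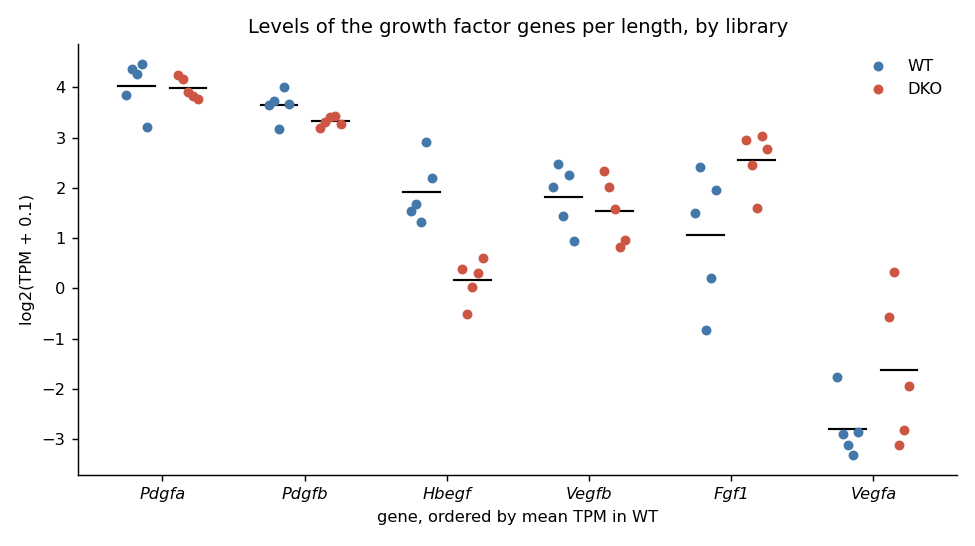
Log2(TPM + 0.1) (y axis) of the 6 growth factor genes, ordered by mean TPM in WT (x axis), in WT and DKO libraries, with 1 point per library and a bar at the mean. Pdgfa and Pdgfb lie highest in both genotypes, Vegfa lowest, and Hbegf and Fgf1 change places around Vegfb on this scale.

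Markers of other brain and blood cells were read beside these genes, and their part in the results was not tested. Their counts stand beside 4.34% of all tested genes that rose and 1.85% that fell. Of 12 endothelial and mural genes 4 were tested and 0 called, with a sum of 6.95 to 12.5 CPM in WT and 8.04 to 14.2 CPM in DKO libraries, mostly Kdr. Cldn5 and Cdh5, which define endothelium, did not pass the count filter. Of 8 astrocyte genes 6 were tested and 1 fell, with a sum of 243 to 398 CPM in WT and 158 to 210.0 CPM in DKO libraries. Nearly all of this was Slc1a3, a glutamate transporter, which fell from 304 ± 56.5 to 171 ± 21.1 CPM (SD, n = 5 each, edgeR adjusted p = 0.00401), while Gfap averaged 0.203 and 0.475 CPM and Aqp4 did not pass the filter. The 6 tested astrocyte genes had a median log2 fold change of 0.21. Gfap, Aldoc and Slc1a2 were higher in DKO, and Aldh1l1, Slc1a3 and Gja1 were lower.

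Of 7 neuronal genes 4 were tested and 0 called (7.77 to 9.55 CPM in WT and 8.52 to 12.7 CPM in DKO libraries). The 6 oligodendrocyte genes, all tested, summed to 197 to 230 CPM in WT and 198 to 213 CPM in DKO libraries, and 1 fell. No oligodendrocyte precursor or neutrophil gene passed the filter, the first summing to at most 0.684 CPM and the second to at most 0.326 CPM, with Olig2, Gpr17, S100a8 and S100a9 at 0 in every library. Of 7 genes of border-associated macrophages 3 were tested and 1 rose, with a sum of 5.18 to 15.8 CPM in WT and 7.04 to 27.5 CPM in DKO libraries. This was Pf4, a platelet and macrophage chemokine, at 0.149 ± 0.138 CPM over WT and 3.91 ± 1.55 CPM over DKO libraries (SD, n = 5 each, edgeR adjusted p = 0.000518), while Cd163 and Lyve1 had no read. Of the monocyte (2 tested), B cell (2), T and NK cell (1), red blood cell (4) and choroid plexus (1) genes 0 were called. B cell genes summed to 418 to 677 CPM in WT and 526 to 886 CPM in DKO libraries, and the other 4 lists to at most 16.2 CPM in any library.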

How the data were processed

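RNA of sorted microglia was sequenced in 10 libraries. Per the labels, the authors used cutadapt 2.6 for trimming, FastQC 0.11.8 for quality checks and STAR 2.5.3a for alignment on mm10. A quantifying program, not given in the sources used here, produced the gene values. The authors deposited for every gene an estimated count without normalization, a TPM scaled to a common total per library, and both the isoform-weighted and the effective length (bases).

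Estimated counts were rounded to whole numbers, filtered with filterByExpr (minimum count 10), scaled by TMM and tested, DKO over WT with no covariate, with edgeR 4.0.16 in R 4.3.3. P-values were adjusted over 13916 genes (threshold 0.05), and each standard error is the fitted log2 change divided by the square root of F. The biological coefficient of variation was 28%, which sets the precision at this depth. The scripts were tested on simulated data. Coordinates are those of GENCODE M21, matched by gene identifier without version for 53668 of 53697 genes.

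The members, lists, tests and alternatives were chosen with earlier results of these data known. Named were the 6 members, the targeted genes, up to 4 called genes of each pathway list with the smallest p or the 2 with the highest CPM where none was called, up to 2 called genes of each marker list, and the 5 genes most like Fgf1 by each measure. Neighbours within 1 Mb, Arhgap26, the receptors and ligands with few reads and markers near 0 were named after their values were seen. So were the list genes named though not called beside others that were. Some called genes of the lists are counted but not reported here by name.

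The 25 alternatives were RLE, upper-quartile or no scaling factors, DESeq2 1.42.0, limma 3.58.1 with voom, with and without a random effect of the replicate number, limma on log2 TPM with 1 or 0.1 added or recomputed without Gm23935, other count filters, an offset for effective length, a block for the replicate number, a covariate that separates replicate numbers 1 to 3 from 4 and 5, leaving out WT 1 and WT 5, and leaving out each library.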

Additional observations from a re-analysis of the deposited data

Results flagged for a closer look

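In each genotype the highest or lowest library was compared with the rest by Dixon's criterion for CPM, TPM and length of each growth factor gene, in 34 groups of 5, where chance alone flags about 1 in 20. The criterion was passed by 2 values. The deposited length of Fgf1 in DKO 3, 3093 bases, lay apart from the 1563 to 1942 bases of the other DKO libraries. The TPM of Vegfa in WT 1, 0.193, lay apart from the 0 to 0.0378 of the other WT libraries, on 3 counts.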

How the results depend on the processing

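Genes called between DKO and WT numbered 862 and, in the pathway lists, 14. The counts moved by more than 1.5 times to 1629 and 22 with DESeq2, to 4815 and 31 with limma on log2(TPM + 1), to 4820 and 31 on log2(TPM + 0.1), and, over all genes, to 1305 with voom and a random effect of the replicate number, to 1431 with a covariate that separates replicate numbers 1 to 3 from 4 and 5 and to 449 without WT 1 and WT 5. Leaving out 1 library gave 402 (without DKO 1) to 1618 (without WT 3) calls over all genes and 7 to 22 in the lists. The cause was not tested.

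With the replicate number as a block, calls numbered 547 and, in the lists, 9. Libraries of equal number correlated in their deviations from the genotype means at -0.235 to 0.199, and not every library correlated best with its own number. The labels do not say whether equal numbers mark pairs, and these values cannot settle it. The block changed no side of the threshold for Fgf1 (2.78) or Hbegf (-1.49).

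Pdgfa lay above Pdgfb by 0.26 log2 units in counts per kilobase, which was not past the threshold. In WT libraries alone the differences were 0.39 for Pdgfa over Pdgfb, 1.71 for Pdgfb over Hbegf and 3.85 for Fgf1 over Vegfa, and in DKO libraries alone 0.65, 3.16 and 4.19, where none was past the threshold because 5 libraries allow no p under 0.0625. Over both genotypes, which differ in sign for this pair, the difference of Hbegf and Vegfb was -0.64, but 0.24 in counts per kilobase. With single libraries left out it ran from -0.85, without WT 5, to -0.43, and no test over both genotypes is read.

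Among 39 genes outside the members, 850 of 972 values under an alternative stayed on their side of the threshold and 0 calls reversed. Depth limits Vegfa, Bhlhe40 and most kinase receptors, whose counts did not pass the filter. Fitted without the filter, Bhlhe40 was not past the threshold.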
